A study of Mus musculus with 6 samples.

Results

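This account follows genes that mark or serve the inhibitory interneurons of the cortex outside the PV class. They comprise the precursors of 6 neuropeptides (Sst, Cort, Npy, Vip, Cck and Crh), the neuronal nitric oxide synthase gene Nos1, and the genes of the secreted proteins NDNF and reelin (Ndnf and Reln). The members were given by name, and they make up 9 of the 37620 genes in the deposited table. The symbol column holds 8 of them, whereas Ndnf is listed under its older symbol A930038C07Rik (ENSMUSG00000049001), which RefSeq gives as a synonym. All 9 passed the expression filter of a mean of at least 10 normalized counts.

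RNA was sequenced from the pre-limbic cortex (PLc), a medial area of the prefrontal cortex, of C57Bl/6 mice aged 9 weeks. The study describes its mice as male. Saline mice 1, 6 and 10 received saline vehicle (i.p.) daily for 5 days, and ketamine mice 3, 5 and 9 received ketamine at 30 mg/kg (i.p.) on the same schedule. Tissue was taken 2 days after the last injection, each of the 6 mice gave 1 library, and ketamine, an NMDA receptor antagonist, was the single treatment compared. The study used these libraries to look for expression differences in the PLc after sub-chronic ketamine, and the comparison here asks which of the 9 genes differed.

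Cortical interneurons release GABA, and most of them also carry a peptide that marks their class. Somatostatin and cortistatin are found in cells that contact the dendrites of pyramidal neurons, VIP in cells that mainly inhibit other interneurons, and CCK in basket cells and also in many pyramidal neurons. NPY is shared by somatostatin cells and by neurogliaform cells of the superficial layers, which also express Ndnf and Reln. A small set of long-range somatostatin cells expresses Nos1 strongly. The peptides are cut from precursors in dense-core vesicles and act on G-protein-coupled receptors, while nitric oxide activates guanylyl cyclase and reelin binds the receptors VLDLR and LRP8.

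Somatostatin and cortistatin act on the same receptors, and the end of each coding sequence shows how alike they are. The last 14 codons before the stop codon are given from the GENCODE M1 transcripts on mm9, 5′ to 3′. They lie on the minus strand at chr16:23889818-23889859 for Sst and chr4:148499376-148499417 for Cort, each within a single exon. Capitals mark the bases that differ when Cort is set against Sst with a shift of 1 codon, which leaves the first codon of Sst and the last codon of Cort unpaired.
Sst: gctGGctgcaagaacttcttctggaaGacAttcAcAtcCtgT
Cort: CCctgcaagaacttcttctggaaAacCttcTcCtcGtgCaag
Over the 39 aligned bases 31 were identical, and 5 of the 8 differing bases stood at the last position of a codon.

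The Sst promoter carries the cAMP response element, the palindrome TGACGTCA that is bound by the activity-dependent factor CREB and was first characterised in this gene. It is shown because Sst was the 1 gene of the 7 searched whose promoter window held it in full, with Crh and Ndnf not searched. The 40 bases around it, on the minus strand at chr16:23890869-23890908 of RefSeq's GRCm38.p6, are given with the element in capitals.
Sst promoter: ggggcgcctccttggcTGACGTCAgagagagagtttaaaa
The element ends 40 bases before the start site. Promoters of 300 bases (250 before and 50 after the start site) were found for 7 of the 9 members, namely Sst, Cort, Npy, Vip, Cck, Nos1 and Reln. Of these 7 promoters 1 held the full element, against 1.79% of the 32851 promoters in the table. Counting the shortened elements TGACG and CGTCA (one on each strand, both contained in the full element), 5 of the 7 held a full or shortened element, against 20.8% of all promoters. Npy and Reln held none in this window. A match is a description of letters, and no binding was measured.

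Between 26273436 and 32643726 reads per library were recovered from the normalized counts, which are the authors' read counts divided by a size factor. The member with the fewest reads in a library was Cort, with between 68 and 135, and the one with the most was Cck, with between 2998 and 11430. limma compared log2(normalized count + 1) in 16127 genes, two-sided, and adjusted p-values by Benjamini-Hochberg over all of them. With limma 0 genes (0.0%) passed an adjusted p of 0.05, the lowest being 0.0922, while 937 (5.81%) were under 0.05 before adjustment. Run on the recovered reads, edgeR called 0 genes (0.0%). DESeq2, which the authors had used, called 182 of 16087 genes (1.13%), with 0.901% higher and 0.23% lower after ketamine, and 1.03% of genes when all with a read were fitted. For 3 mice against 3, the smallest p of an exact permutation test is 0.1. In these libraries the defining markers of cortical excitatory neurons and of GABAergic neurons were abundant, with between 22152 and 49417 normalized counts for Slc17a7 and between 8469 and 21399 for Gad1.

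Levels of different genes were compared as normalized counts per kilobase of exon. In saline mice Cck was highest, at 10720 ± 2443 per kilobase, followed by Sst at 6509 ± 479, Npy at 2994 ± 47.3 and Vip at 804 ± 353 (SD, n = 3 each). The other 5 lay far lower, with Cort at 184 ± 22.5, Reln at 123 ± 30.9, Nos1 at 116 ± 8.1, Crh at 86.8 ± 6.8 and Ndnf at 68.1 ± 4.2 per kilobase (SD, n = 3 each). Reln and Nos1 overlapped after saline, whereas every other pair of neighbours in this order was separated in all 3. In ketamine mice the first 4 kept this order by their means, although Cck and Sst now overlapped. The lower end was reordered there, and Ndnf stood 6th at 155 ± 24.9 per kilobase, above Cort at 138 ± 41.3 (SD, n = 3 each). Their ranges in ketamine mice overlapped, from 130 to 179 for Ndnf and from 98.3 to 181 for Cort. Cck and Sst stood at percentiles 99.5 and 99.1 of the tested genes per kilobase over the 6 mice, while Crh and Ndnf stood at 40.4 and 41.7.

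**Figure D1:**
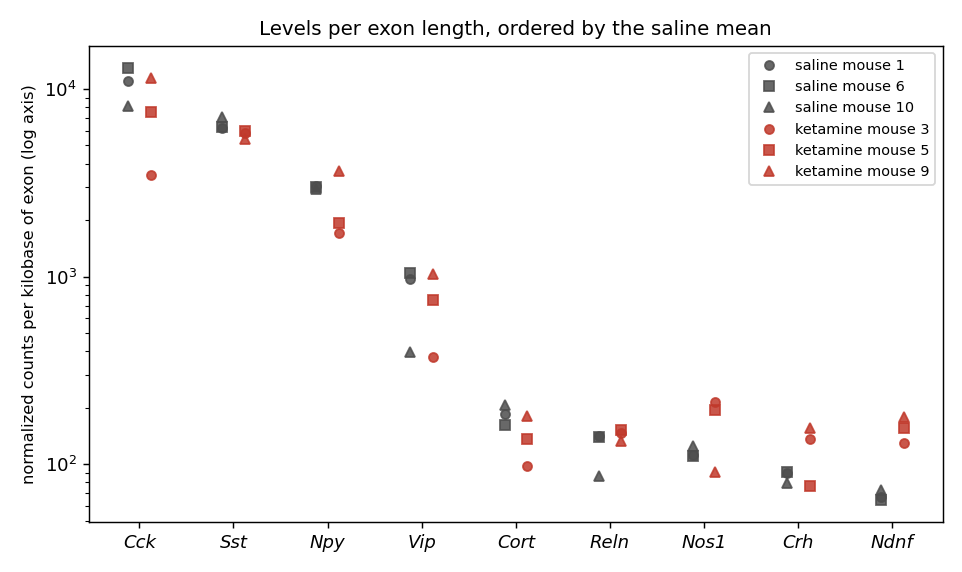
Normalized counts per kilobase of exon (log axis) of each gene in each of the 6 mice, ordered by the saline mean, with saline mice in grey and ketamine mice in red. The saline means run from 10720 for Cck to 68.1 for Ndnf, and Ndnf is the gene whose 3 ketamine points stand clear above its saline points.

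Of the 9 genes, 1 had all ketamine mice above all saline mice (Ndnf), 1 had all of them below (Sst), and 7 overlapped between the groups. Over all tested genes, 5.69% were higher and 4.66% lower without overlap, 10.3% in either direction. limma called 0 of the 9, and 1 had an unadjusted p under 0.05. edgeR called 0, and DESeq2 called 1, Ndnf. The median log2 fold change of the 9 was -0.16, with 4 above and 5 below 0, beside -0.01 over all tested genes. All 3 non-peptide members had a fold change above 0, and 5 of the 6 peptide precursors had one below 0. In bulk tissue, fewer cells of a type and less RNA per cell cannot be told apart for any of these genes.

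**Figure D2:**
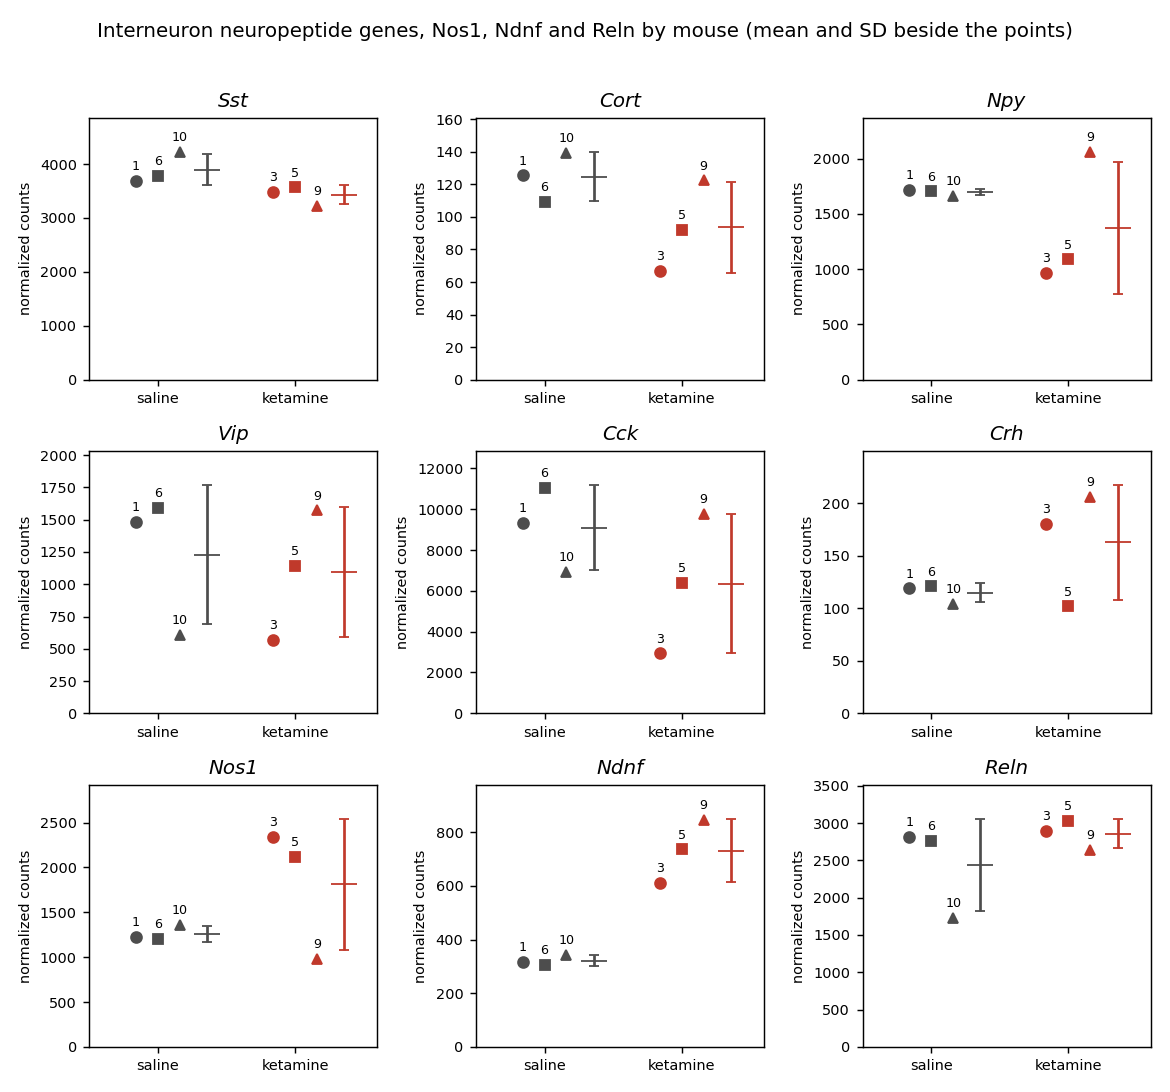
Normalized counts of each gene in each mouse (points labelled with the mouse number), with saline in grey, ketamine in red, and the group mean and SD (n = 3) to the right of the points. Ndnf is separated upwards, Sst is separated downwards by a small margin, and the other 7 genes overlap.

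Ndnf encodes a secreted neuronal growth factor and marks neurogliaform and other layer 1 interneurons. It had 317, 304 and 343 normalized counts in saline-treated mice 1, 6 and 10, and 612, 736 and 847 in ketamine-treated mice 3, 5 and 9. Every ketamine mouse thus lay above every saline mouse, and the gap between the groups was larger than the range within either. The means were 321 ± 19.6 and 731 ± 118 normalized counts (SD, n = 3 each). On the log2 scale the difference was 1.17 (standard error 0.162, 95% confidence interval 0.79 to 1.55), which is 2.26-fold. The unadjusted p by limma was 0.000149 and the adjusted p 0.173, the 12th smallest p of the 16127 genes. edgeR gave 1.20 with an adjusted p of 0.181, and DESeq2 gave 1.19 (standard error 0.197) with an adjusted p of 1.08e-06. With each mouse left out in turn the log2 fold change stayed between 1.06 and 1.30. The gene spans chr6:65621584-65656924 of mm9 on the plus strand, where GENCODE M1 has no overlapping gene.

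Summed markers of other tissue were also higher in some or all ketamine mice, in orders that differed from that of Ndnf. Of 9 genes listed for mitral and tufted cells of the olfactory bulb, 9 had a fold change above 0, and their summed level was between 221 and 424 normalized counts after saline and between 1318 and 9464 after ketamine. Tbx21, a defining gene of these cells, had 1.92, 3.86 and 3.29 normalized counts after saline and 47.0, 26.3 and 362 after ketamine, and none of the 9 was at 0 throughout. Both Ndnf and the olfactory sum were highest in ketamine mouse 9, while the lowest ketamine value was that of mouse 3 for Ndnf and of mouse 5 for the sum. Of 17 tested striatal markers, 17 had a fold change above 0, with sums of 81120, 42411 and 13584 normalized counts in ketamine-treated mice 3, 5 and 9 and between 12690 and 13957 after saline. None of the striatal markers was at 0 throughout. Ndnf was highest in ketamine mouse 9, whose striatal sum was within the saline range, although single striatal markers lay on either side of that range. Without mice 3 and 5, which leaves mouse 9 as the only ketamine mouse, the log2 fold change of Ndnf was 1.40. Without saline mouse 10 and ketamine mouse 9, the mice of each group with the most olfactory marker RNA, it was 1.11 (adjusted p = 0.0173 by limma). In that fit 587 genes passed, and 0 did so when every mouse was kept. The olfactory difference remained in it, with sums of 1709 for ketamine mouse 3 and 1318 for ketamine mouse 5. Saline mouse 1 had 221 and saline mouse 6 had 315. The striatal difference remained too, because mice 3 and 5 have the high striatal sums. The fit therefore cannot separate Ndnf from either tissue. The part of olfactory or striatal tissue in the Ndnf result was not tested.

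Other markers of the same interneurons were split. Of 8 listed genes of neurogliaform and layer 1 cells, 4 had a fold change above 0 and 4 below, with a median of 0.00, and neither limma nor DESeq2 called any of them (0 with an unadjusted p under 0.05 by limma). Lamp5, the membrane protein gene used to name the class, had 7794, 6911 and 3679 normalized counts after saline and 2730, 4079 and 4845 after ketamine (log2 fold change -0.63, adjusted p = 0.969 by limma). Jam2, an adhesion molecule gene, had between 1252 and 1463 after saline and between 1479 and 2062 after ketamine (log2 fold change 0.36). Ndnf and Lamp5, both markers of this class, thus differed in sign, although Lamp5 overlapped between the groups. Saline mouse 10 and ketamine mouse 3 were lowest of their groups for Lamp5, as in the sum of excitatory neuron markers given below. The part of excitatory neurons in the Lamp5 value was not tested.

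Reln encodes reelin, an extracellular protein that guides the layering of the developing cortex and acts at adult synapses. It had 2814, 2763 and 1726 normalized counts in saline-treated mice 1, 6 and 10, against 2899, 3031 and 2645 in ketamine-treated mice 3, 5 and 9. Saline mouse 10 stood far below the other 5 mice, which lay close together, and the groups overlapped because ketamine mouse 9 was below saline mice 1 and 6. Between the groups the log2 fold change came to 0.26 (standard error 0.207, adjusted p = 0.999 by limma; exact permutation p = 0.4). It was 0.033 without saline mouse 10. That mouse also had the most RNA of oligodendrocyte markers, whose sum over 5 genes was 362254 normalized counts against at most 153948 in any other mouse, and the part of white matter in the Reln value was not tested. With upper-quartile scaling the groups no longer overlapped, with 2889 in ketamine mouse 9 and 2817 in saline mouse 6. Reln spans chr5:21390272-21850523 on the minus strand, and shares 246 exon bases with Gm10475 on the other strand, a gene with a mean of 1.6 normalized counts.
In the list of reelin signalling, 11 genes were tested, of which 6 were above and 5 below 0, with a median log2 fold change of 0.01. limma and DESeq2 called 0 of them, and 0 had an unadjusted p under 0.05. The receptor genes Vldlr and Lrp8 had log2 fold changes of 0.01 and -0.03, and Dab1, the adaptor that both receptors use, 0.13. The smallest p-values were those of Src, a kinase gene (log2 fold change -0.21), and Pafah1b1, the gene of LIS1 (-0.23).

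Sst, the somatostatin gene, varied least of the 9. It had 3695, 3775 and 4227 normalized counts in saline-treated mice 1, 6 and 10 and 3490, 3568 and 3229 in ketamine-treated mice 3, 5 and 9. Each ketamine mouse lay under each saline mouse, and the gap between the nearest mice was small beside the spread within the groups. limma put the log2 fold change at -0.18 (standard error 0.121, 95% confidence interval -0.47 to 0.10, adjusted p = 0.999; exact permutation p = 0.1). The groups stayed apart with TMM and upper-quartile scaling. The highest mouse had 1.31 times the level of the lowest, against 2.10 times for Cort.
Cort, the gene of cortistatin, had the lowest level per kilobase of the precursors made in somatostatin cells. It had 125, 109 and 139 normalized counts in saline-treated mice 1, 6 and 10 and 66.6, 92.2 and 122 in ketamine-treated mice 3, 5 and 9. Ketamine mice 3 and 5 were below every saline mouse, whereas mouse 9 was between them. The fold change on the log2 scale was -0.44 (standard error 0.263, adjusted p = 0.999 by limma; exact permutation p = 0.2). It was -0.22 without ketamine mouse 3, -0.66 without ketamine mouse 9 and -0.019 without ketamine mice 3 and 5. Cort spans chr4:148499143-148500872 and Sst chr16:23889667-23890930, both on the minus strand and with no overlapping gene.

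Npy, which encodes neuropeptide Y, was almost constant among saline mice, at 1717, 1702 and 1665 normalized counts, a coefficient of variation of 1.6%. Ketamine mice 3, 5 and 9 had 964, 1088 and 2060, a coefficient of variation of 43.8%. Mice 3 and 5 were thus far below, and mouse 9 above, every saline mouse. The log2 fold change over all mice was -0.39 (standard error 0.275, adjusted p = 0.999 by limma; exact permutation p = 0.4). It was -0.74 without saline mouse 10 and ketamine mouse 9 (adjusted p = 0.0243 by limma) and 0.28 without ketamine mice 3 and 5. With 1 mouse left out it ran from -0.73 (without ketamine mouse 9) to -0.18 (without ketamine mouse 3). The fit without saline mouse 10 and ketamine mouse 9 passed 587 genes, against 0 with all mice, so passing there was not particular to Npy.
Nos1, whose product makes nitric oxide from arginine, stood on the other side of the saline values in the same mice. It had 1222, 1200 and 1363 normalized counts in saline-treated mice 1, 6 and 10, and 2337, 2120 and 983 in ketamine-treated mice 3, 5 and 9. Mice 3 and 5 were above, and mouse 9 below, every saline mouse. limma gave a log2 difference of 0.43 over all mice (standard error 0.316, adjusted p = 0.999; exact permutation p = 0.4), and it was -0.36 without mice 3 and 5 and 0.88 without saline mouse 10 and ketamine mouse 9 (adjusted p = 0.0132 by limma). With 1 mouse left out it ran from 0.20 (without ketamine mouse 3) to 0.82 (without ketamine mouse 9). Ketamine mice 3 and 5 were the mice with the high striatal sums given above. Both stayed in the fit without saline mouse 10 and ketamine mouse 9, in which 587 genes passed. The striatum has its own Nos1 and Npy interneurons, and the part of striatal tissue in either value was not tested.

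**Figure D3:**
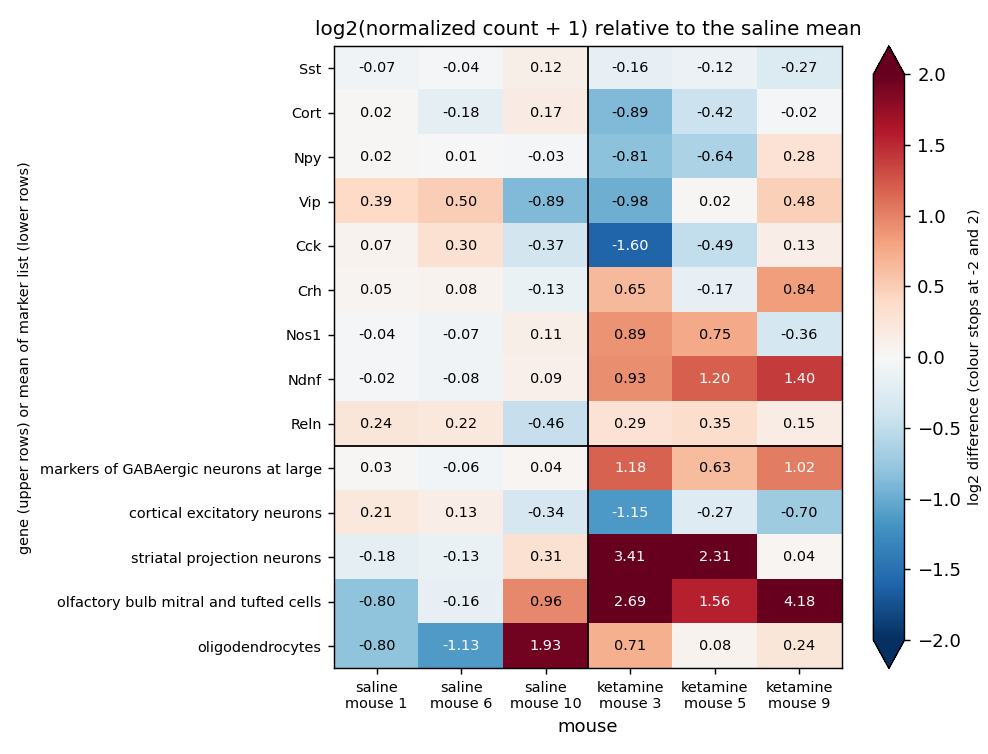
log2(normalized count + 1) of each gene (upper rows) and the mean of 5 marker lists (lower rows) in each mouse, as the difference from the saline mean, with red for higher and blue for lower. Ketamine mouse 9 differs in sign from mice 3 and 5 for Npy (0.28 against -0.81 and -0.64) and Nos1 (-0.36 against 0.89 and 0.75), while Ndnf is above 0 in all 3.

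Beside Sst, Cort, Npy and Nos1, the somatostatin class was represented by 10 other markers. Of these 8 had a fold change above 0 and 2 below, with a median of 0.19. limma called 0 (2 with an unadjusted p under 0.05), and DESeq2 called 1 higher and 1 lower. Tacr1, the receptor gene for substance P that marks the long-range Nos1 cells, had 33.5, 33.8 and 56.0 normalized counts after saline and 474, 189 and 170 after ketamine (log2 fold change 2.61). Satb1, a transcription factor gene that is also active in excitatory neurons, had between 3022 and 3683 after saline and between 1415 and 2193 after ketamine (log2 fold change -0.89). Chodl, another marker of the long-range cells that was named after its values were seen, had 16.3, 10.6 and 12.1 normalized counts after saline and 94.0, 20.7 and 18.1 after ketamine. Nos1 itself was not high in ketamine mouse 9, in which Tacr1 was above every saline mouse. Chodl there was only just above saline mouse 1 (18.1 against 16.3). Both Tacr1 and Chodl were highest in ketamine mouse 3, the mouse with the highest striatal sum. The part of striatal tissue in their values was not tested.

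Nitric oxide signalling, including partners of the synthase, was represented by 10 tested genes. limma and DESeq2 called 0 of them (1 with an unadjusted p under 0.05 by limma), 3 were above and 7 below 0, and the median log2 fold change was -0.15. Nos1ap, the gene of an adaptor that binds the synthase, had 3682, 3035 and 2315 normalized counts in saline-treated mice 1, 6 and 10 and 1709, 2560 and 846 in ketamine-treated mice 3, 5 and 9 (log2 fold change -0.94). Pde5a, which breaks down cGMP, had a log2 fold change of -0.30. The guanylyl cyclase subunit genes Gucy1a1 and Gucy1b1 had 0.16 and 0.03.

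Vip, the gene of vasoactive intestinal peptide, split both groups. It had 1482, 1591 and 608 normalized counts in saline-treated mice 1, 6 and 10, while ketamine mice 3, 5 and 9 had 571, 1140 and 1573. In each group 1 mouse, saline mouse 10 and ketamine mouse 3, was far below the rest. Between the groups the log2 fold change came to -0.16 (standard error 0.475, 95% confidence interval -1.28 to 0.95, adjusted p = 0.999 by limma; exact permutation p = 0.6). Its sign was positive without saline mouse 1 (0.034), saline mouse 6 (0.086) or ketamine mouse 3 (0.25), and it was -0.61 without saline mouse 10.
Cck, the cholecystokinin gene, had the widest range of the 9, with 3.76 times as much in the highest mouse as in the lowest. It had 9341, 11031 and 6910 normalized counts in saline-treated mice 1, 6 and 10 and 2935, 6370 and 9751 in ketamine-treated mice 3, 5 and 9. Ketamine mouse 3 was lowest and saline mouse 10 the lowest of its group, as for Vip. limma put the log2 fold change at -0.66 (standard error 0.421, 95% confidence interval -1.64 to 0.33, adjusted p = 0.999; exact permutation p = 0.3). It was -0.18 without ketamine mouse 3 alone, -1.05 without ketamine mouse 9, and 0.13 without ketamine mice 3 and 5. Of 10 excitatory neuron markers, 10 had a fold change below 0, with summed levels of 92489, 155069 and 103868 normalized counts in ketamine-treated mice 3, 5 and 9 and between 143538 and 191669 after saline. Saline mouse 10 and ketamine mouse 3 were lowest of their groups in this sum too, and none of the 10 was at 0. Single markers were split in saline mouse 10, which had the highest saline values of Neurod6 (4051) and Neurod2 (3237) and the lowest of the other markers listed. The part of excitatory neurons in the Cck value was not tested.

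Crh encodes corticotropin releasing hormone, the stress peptide that in cortex is made by VIP cells and some other neurons. It had 119, 121 and 104 normalized counts in saline-treated mice 1, 6 and 10 and 180, 102 and 206 in ketamine-treated mice 3, 5 and 9. Mice 3 and 9 were above every saline mouse, while mouse 5 was below all of them. The fold change on the log2 scale was 0.44 (standard error 0.284, adjusted p = 0.999 by limma; exact permutation p = 0.4). Leaving out ketamine mouse 9 gave 0.24 and leaving out ketamine mouse 5 gave 0.75. The olfactory sum had the same order among ketamine mice, lowest in mouse 5 and highest in mouse 9. The olfactory bulb also holds cells that make Crh, and their part in its value was not tested.
The precursor genes Cort, Npy, Vip and Cck shared the order mouse 3, mouse 5, mouse 9 from low to high among the ketamine mice, and Nos1 had the reverse order. Ndnf also ran from mouse 3 to mouse 9, but with all 3 above the saline mice. The share of all tested genes with either order was not determined.

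**Figure D4:**
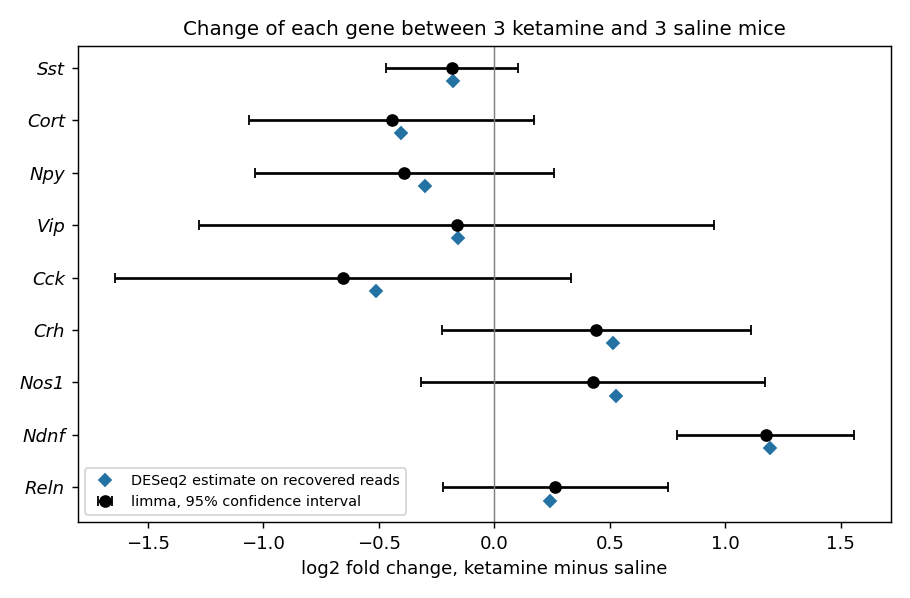
log2 fold change (ketamine minus saline) of each gene, with black points and bars for limma and its 95% confidence interval and blue diamonds for the DESeq2 estimate (3 mice a group). The interval of Ndnf runs from 0.79 to 1.55, and those of the other 8 genes include 0.

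Of 10 other markers of VIP and CCK interneurons, 5 were above and 5 below 0, with a median log2 fold change of 0.08. limma called 0 (2 with an unadjusted p under 0.05) and DESeq2 called 0. Calb2, the calretinin gene, had 350, 388 and 646 normalized counts after saline and 1860, 945 and 7274 after ketamine (log2 fold change 2.39). Its order among ketamine mice was that of the olfactory sum, highest in mouse 9 and lowest in mouse 5, and the part of olfactory tissue in the Calb2 value was not tested. Adarb2, an RNA-binding protein gene of interneurons that arise in the caudal eminence, had between 555 and 717 after saline and between 776 and 1025 after ketamine (log2 fold change 0.52).
Genes shared by GABAergic neurons at large formed a list of 11. Of these, 10 had a fold change above 0 and 8 were higher in every ketamine mouse, with a median log2 fold change of 0.83. limma called 0 (8 with an unadjusted p under 0.05) and DESeq2 called 4 higher. Gad1, which makes GABA, had between 8469 and 10686 normalized counts after saline and 15903, 11653 and 21399 in ketamine-treated mice 3, 5 and 9. The smallest p-values were those of Dlx5 and Dlx6, transcription factor genes of the GABAergic lineage, with log2 fold changes of 2.01 and 1.50. Of the 6 peptide precursors 5 had the opposite sign, none of them with an unadjusted p under 0.05 by limma. Both the striatum and the olfactory bulb are rich in GABAergic neurons, and the part of their markers, given above, was not tested. In the PV class 6 of 6 markers were below 0, with a median of -0.60, where DESeq2 called 2 lower and limma 0 (3 with an unadjusted p under 0.05).

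The receptors and binding proteins of the 6 peptides formed a list of 18 genes, of which 15 passed the filter. Sstr5, Npy4r and Npy6r did not, with at most 40.1, 2.9 and 7.83 normalized counts in any mouse. Of the 15, 6 were above and 9 below 0, with a median log2 fold change of -0.19. limma called 0 (2 with an unadjusted p under 0.05) and DESeq2 called 1, Vipr2. All 4 tested somatostatin receptor genes had a fold change below 0, between -0.76 and -0.17. The furthest was Sstr4, with 785, 600 and 603 normalized counts after saline and 427, 597 and 228 after ketamine, which did not overlap (exact permutation p = 0.1, log2 fold change -0.76, unadjusted p = 0.0585 by limma). Mouse 5 was close to saline mice 6 and 10.
The NPY receptor genes Npy1r and Npy5r had log2 fold changes of -0.19 and 0.10, and Npy2r ranged from 91.7 to 855 normalized counts, its highest value being that of saline mouse 10. Cckbr, the main brain receptor of CCK, had 2356, 2289 and 1053 after saline and 901, 1752 and 1419 after ketamine, and like Cck it was lowest in ketamine mouse 3 and, among saline mice, in mouse 10. Crhr1, the receptor of CRH, and Crhbp, which sequesters it, had log2 fold changes of -0.34 and -0.27.
Vipr2, a receptor of VIP and PACAP, had between 16.3 and 28.6 normalized counts after saline and 85.2, 114 and 359 in ketamine-treated mice 3, 5 and 9 (log2 fold change 2.81, adjusted p = 4.15e-05 by DESeq2). Both Vipr2 and the olfactory sum were highest in mouse 9, while Vipr2 was lowest in mouse 3 and the sum in mouse 5, and the part of olfactory tissue in the Vipr2 value was not tested. Vipr1, the other VIP receptor gene, had a log2 fold change of -0.43, and Adcyap1r1, the PACAP receptor gene, had 0.39.

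**Figure D5:**
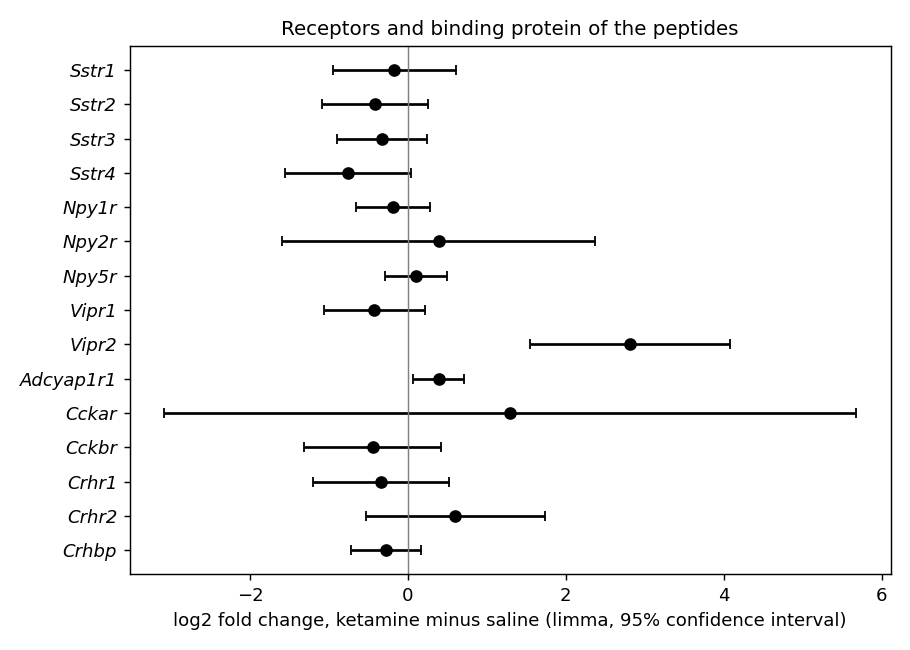
log2 fold change (ketamine minus saline) with its 95% confidence interval by limma for the 15 tested receptor and binding protein genes (3 mice a group). The 4 somatostatin receptor genes lie left of 0, and the intervals of Vipr2 and Adcyap1r1 lie right of it.

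The enzymes and granins that cut, modify and store peptides were tested as a list of 13 genes. Of these 4 were above and 9 below 0, with a median log2 fold change of -0.18, and limma called 0 (2 with an unadjusted p under 0.05), as did DESeq2. Scg2, the gene of secretogranin II, had 5362, 4598 and 6100 normalized counts in saline-treated mice 1, 6 and 10 and 11062, 6820 and 10527 in ketamine-treated mice 3, 5 and 9, without overlap and with a log2 fold change of 0.80. Chgb, the gene of chromogranin B, had the opposite sign, with between 11692 and 15932 after saline and between 8715 and 10714 after ketamine (log2 fold change -0.47). Neither passed the adjusted threshold. The convertase genes Pcsk1 and Pcsk2 had log2 fold changes of -0.38 and -0.61, and Cpe, the carboxypeptidase that trims the cut peptides, -0.02.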

How the data were processed

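RNA from the PLc of 3 saline and 3 ketamine mice was sequenced with paired-end reads. The authors aligned the reads to mm9 with TopHat 2.0.11, counted them per gene with HTSeq and divided the counts by a size factor for each library. The deposited values are therefore a signal per gene, in normalized counts. The annotation and the strand setting are not given in the sources used here. Columns were matched to samples by mouse number, and 0 columns were left unused. Each library is a separate mouse by its label. Mouse numbers differ between groups, so samples were not paired, and the labels name no batch.

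The low values of each library were multiples of 1 step, and 100.0% of values gave whole reads within 0.006. Log2(normalized count + 1) was compared with limma 3.58.1 (trend) in R 4.3.3, over genes whose mean reached 10 normalized counts. The recovered reads were tested with edgeR 4.0.16 and DESeq2 1.42.0 as alternatives. All 3 tests were checked on simulated data. Exact permutation tests over the 6 mice were two-sided, on log2 values. Exon lengths and coordinates are those of GENCODE M1 (37205 of 37620 identifiers matched). A 95% confidence interval is limma's, for the difference of the group means of log2 values. Its width rests on the variance between mice, which limma draws towards a trend over all genes.

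The members and gene lists were chosen with earlier results of these data known. All 162 listed genes were matched, and Six3 matched more than 1 row. Genes named are the 9 members, the 2 genes of each list of receptors, signalling, processing, interneuron classes or other cells with the smallest p, defining markers, and the 3 genes with the most similar profile to a member. A gene that this rule names is not reported here. Other receptor, signalling and processing genes and Chodl were chosen after their values were seen. Alternatives were pseudocounts of 0.1 and 5, no filter, a filter of 100, TMM and upper-quartile scaling, no trend, edgeR, DESeq2, and mice left out.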

Additional observations from a re-analysis of the deposited data

How the results depend on the processing

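Each of the 9 log2 fold changes was recomputed under 18 alternatives, and 150 of the 162 values kept both their sign and their side of the threshold. The sign turned in 7 values. Without ketamine mice 3 and 5, where mouse 9 stands alone and is assumed to vary like the saline mice, it was 0.28 for Npy, 0.48 for Vip, 0.13 for Cck and -0.36 for Nos1. For Vip it also turned without saline mouse 1 (0.034), saline mouse 6 (0.086) or ketamine mouse 3 (0.25), in a range of -0.61 to 0.25 with each mouse left out. A value passed the threshold in 5 cases, the cause of which was not tested: Ndnf with DESeq2 over the same genes (1.19) and over all genes with a read (1.19), and Ndnf (1.11), Npy (-0.74) and Nos1 (0.88) without saline mouse 10 and ketamine mouse 9. The count of members called was 0 with limma, 1 with either DESeq2 fit and 3 without these 2 mice, and 0 with each mouse left out. The count over all genes was 182 and 188 with the DESeq2 fits, 587 without these 2 mice, and between 0 and 1 with each mouse left out, being 1 without ketamine mouse 5 or ketamine mouse 9. No paired analysis was possible because the groups share no mouse number. Cort and Crh, with as few as 68 and 95 reads in a library, carry the most counting error of the 9. Overlap of the groups under the other scalings was looked at after seeing the data, and it changed for Reln alone, with upper-quartile scaling.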

Other observations

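For the 7 genes whose highest and lowest mouse differed by more than 1 log2 unit, the most similar profiles over the 6 mice were sought among 12404 genes whose mean reached 100 normalized counts, by the root-mean-square difference of log2 values after centring each gene on its own mean. The profile nearest to Ndnf was that of Adra2a, which encodes an adrenergic receptor, with a difference of 0.056. Adra2a had 328, 337 and 385 normalized counts in saline-treated mice 1, 6 and 10, against 650, 751 and 863 in ketamine-treated mice 3, 5 and 9. Mex3a (0.132) and Dll1 (0.143), the gene of a Notch ligand, came next. Nearest to Nos1 were Grik2, a kainate receptor gene (0.077), Zfp804a (0.102) and Pou2f1 (0.104). Nearest to Npy were Pir (0.069), Copz2 (0.093) and Ly6e (0.104), and among those nearest to Cort were Msra (0.106) and Igfbp4 (0.115). Vip was most like Wnt4 (0.12), Grm2, a metabotropic glutamate receptor gene (0.126), and Dusp14 (0.137). Cck was most like Pparg (0.123), Igfbp6 (0.17) and E130012A19Rik (0.178), and Crh was most like Pgap1 (0.096), Fbln5 (0.129) and Gm9846 (0.131). These are descriptions over 6 mice that share their libraries and treatment.

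The spread of the 9 genes over the mice is given as a description, with no test and no matching on depth. The median difference between the highest and the lowest mouse was 1.09 log2 units over the 9 and 0.61 over all tested genes whose mean reached 100 normalized counts. Sst, with 0.39, was below the latter value. Markers of astrocytes, microglia and endothelial cells overlapped between the groups in all of their genes. Their median log2 fold changes were 0.11 over 5 genes (Gja1 0.24 and Slc1a2 -0.25 with the smallest p-values), -0.08 over 5 genes (P2ry12 -0.12, Cx3cr1 -0.14) and -0.09 over 4 genes (Kdr -0.23, Flt1 -0.11). Those of oligodendrocytes had a median of 0.30 over 5 genes (Mobp 0.51, Mbp 0.40). For the lists named in the report, the smallest p-values were those of Penk and Syndig1l among striatal markers (2.38 and 3.12), Cdhr1 and Eomes among olfactory markers (3.78 and 4.63), Neurod6 and Fezf2 among excitatory markers (-1.35 and -1.11) and Kcnc2 and Kcns3 among PV markers (-0.52 and -0.91), all of them log2 fold changes.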
